A study of Mus musculus with 48 samples.

Results

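Neurons that held Npy transcripts and no Agrp transcript were examined in single-cell RNA-seq of the embryonic mouse hypothalamus. A cell was taken as one of these Npy+Agrp- neurons when it had at least 1 UMI (unique molecular identifier, 1 counted molecule) of Npy, 0 UMIs of Agrp, and at least 3 of the 6 neuron genes Stmn2, Tubb3, Snap25, Syt1, Elavl4 and Rbfox3. The members were thus chosen by their measured Npy and Agrp UMIs, and the levels of these 2 genes are given as a description, with no test. The rule did not use the genotype. The shares of neurons that met it, in all and split by their Npy UMIs, were compared between the genotypes. 610 of 14121 cells met these conditions, 216 in Control and 394 in Eed-cKO embryos. They were drawn from 11122 cells with at least 3 neuron genes, called neurons here, of which 5898 were Control and 5224 were Eed-cKO. The other neurons comprised 77 with both Npy and Agrp, 42 with Agrp alone and 10393 with neither.

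The embryos were taken at E18.5, in a mixed B6:129S1 background. Control embryos carried the floxed Eed allele on both chromosomes (Eed fl/fl) without Cre, and Eed-cKO embryos carried the same floxed alleles with Sox1-Cre (Eed fl/fl; Sox1-Cre/+), whose promoter drives deletion in the developing central nervous system. There were 6 Control and 9 Eed-cKO embryos, and the hypothalamus of each was loaded as 1 to 4 libraries, 48 in all. The embryo was the replicate, since the libraries of an embryo are pieces of 1 hypothalamus. The leading number of the library name was never shared by the genotypes, and the labels do not say what it marks. Whatever it marks, a litter for example, cannot be told apart from genotype.

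Neuropeptide Y is a transmitter peptide stored in dense-core vesicles. In the arcuate nucleus of the hypothalamus it is made together with the agouti-related peptide AGRP by neurons that drive feeding, while elsewhere in the forebrain NPY is often made together with somatostatin by GABAergic neurons. EED is a core subunit of Polycomb repressive complex 2 (PRC2), which places the repressive H3K27me3 mark on genes of other lineages and positions, the Hox genes among them.

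The 250 bases before the RefSeq start sites of Npy and Sst, the peptide genes that mark these cells, are shown for context, 5′ to 3′ on the strand of the gene in GRCm38.p6. Npy lies at chr6:49822710-49829507 (plus strand) and Sst at chr16:23889573-23890958 (minus strand) in the GENCODE vM21 annotation. The Npy window is chr6:49822460-49822709, with each CG dinucleotide in capitals. The Sst window is chr16:23890845-23891094, with the cAMP response element TGACGTCA, which reads the same on both strands, in capitals.
Npy: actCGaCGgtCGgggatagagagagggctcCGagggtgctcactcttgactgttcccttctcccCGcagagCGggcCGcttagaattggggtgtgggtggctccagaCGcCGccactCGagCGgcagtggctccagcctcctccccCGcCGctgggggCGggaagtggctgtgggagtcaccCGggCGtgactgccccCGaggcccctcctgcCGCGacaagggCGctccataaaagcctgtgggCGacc
Sst: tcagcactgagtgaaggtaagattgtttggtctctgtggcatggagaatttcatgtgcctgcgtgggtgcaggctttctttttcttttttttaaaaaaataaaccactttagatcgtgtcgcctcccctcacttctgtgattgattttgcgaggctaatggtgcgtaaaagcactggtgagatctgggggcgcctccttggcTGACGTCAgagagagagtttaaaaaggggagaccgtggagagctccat
The Npy window held 21 CG dinucleotides, and 16.3% of 32851 RefSeq promoter windows of the same length held as many. The Sst window held 8, a number reached by 43.0% of the windows, whose median was 6. The element TGACGTCA occurred once in the Sst window, starting 48 bases before the start site, and 508 windows (1.55%) held it.

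Some facts of the libraries bear on what follows. Library totals ran from 576432 to 4513505 UMIs and the median cell of an embryo held 2663 to 6400 UMIs. 1 library of Control embryo 5 stood apart with 1207 cells, where the others held 163 to 465, and it supplied 52 of the 216 Control Npy+Agrp- neurons. 101 cell barcodes occurred in more than 1 library, in 203 cells, 12 of them Npy+Agrp- neurons. The 3′ tags of Eed lie outside the floxed exons and so do not check the deletion. In Npy+Agrp- neurons Eed stood at 14.4 to 41.4 CPM (UMIs of the gene per 1000000 UMIs of the sum) in Control embryos, with a median of 31.97. It stood at 0 to 34.6 with a median of 23.1 in Eed-cKO embryos, and the difference did not pass the test (log2 fold change −0.50 ± 0.36 SE, adjusted p = 0.556). In the other neurons of the same embryos Eed ran from 29.1 to 34.0 CPM in Control and from 16.8 to 28.4 in Eed-cKO embryos, with no overlap.

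The cut at 1 UMI and the cut at 3 neuron genes set who was counted. 96 Control and 176 Eed-cKO members sat just inside the Npy limit with exactly 1 UMI, and 11 and 41 just inside the neuron limit with exactly 3 neuron genes, while 15 and 50 Npy cells without Agrp fell just outside it with 2. Of the Npy neurons left out for Agrp, 9 of 49 in Control and 7 of 28 in Eed-cKO embryos had a single Agrp UMI, and their median was 14 and 5 Agrp UMIs. In vascular, fibroblast and microglial cells, which should lack Npy, 1 of 272 cells held a UMI in Control (0.368%, exact 95% interval to 2.03%), where the median depth was 3695.5 UMIs, and 16 of 461 did in Eed-cKO embryos (3.47%, 2.00 to 5.58%), where it was 3666. Neurons held an Npy UMI in 4.49% and 8.08% of cells at medians of 5209.5 and 4840 UMIs. Both neuron shares stood above those backgrounds. Neurons with exactly 1 Npy UMI and no Agrp (1.59% of Control and 3.03% of Eed-cKO neurons) lay within the intervals and cannot be told apart from background. The background shares count cells with any number of Npy UMIs, up to 20 in an Eed-cKO cell, so this comparison is not like for like. Intervals cover counting error only.

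Npy+Agrp- neurons made up a larger share of neurons in Eed-cKO embryos. The share was 3.58 ± 0.79% (SD, n = 6) in Control embryos, with a lowest, median and highest value of 2.68, 3.51 and 4.81%. It was 6.93 ± 3.17% (SD, n = 9) in Eed-cKO embryos, from 2.65 through 6.03 to 13.1%. The ranges overlapped through 1 Eed-cKO embryo, number 2, which had only 4 members in its single library, and the other 8 lay above every Control embryo. The difference of 3.35 percentage points, a ratio of 1.93, passed the test (exact permutation test of means, two-sided, p = 0.0196). Without cells that held 2 or more genes of a glial list, described further on, it was 1.97 points and did not pass (exact permutation p = 0.0593). With every cell thinned to 2000 UMIs the shares were 2.63 and 4.21% (exact p = 0.0252). Neurons with Npy, with or without Agrp, averaged 4.35% in Control and 7.41% in Eed-cKO embryos (exact permutation p = 0.0436, adjusted p = 0.0560). After thinning these shares were 3.35 and 4.47% and the difference did not pass (exact permutation p = 0.152).

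Split by Npy transcripts, the classes with 2 and with 3 to 9 UMIs were larger in Eed-cKO embryos when all members were counted. No difference was detected in the class with 10 or more. Neurons with exactly 1 Npy UMI were 1.59% of Control and 3.03% of Eed-cKO neurons, a difference that did not pass the exact permutation test (adjusted p = 0.178). Those with 2 UMIs ran from 0.300 to 0.656% in Control (mean 0.520%) and from 0.868 to 3.05% in Eed-cKO embryos (mean 1.45%), with no overlap (exact permutation test, adjusted p = 0.0144 over the 4 classes). Those with 3 to 9 UMIs stood at 0.684 and 1.80% (adjusted p = 0.0144, same test). Without cells that held glial genes this class stood at 0.686 and 1.45% (exact permutation p = 0.0352). The class with 2 UMIs then stood at 0.520 and 1.22% (p = 0.0022, same test), and neither p was adjusted over the 4 classes. Neurons with 10 or more Npy UMIs and no Agrp were 0.792 ± 0.364% of Control and 0.655 ± 0.559% of Eed-cKO neurons (exact permutation test, adjusted p = 0.611). This last class held 48 Control and 39 Eed-cKO cells and 80.3% and 57.2% of all Npy UMIs of the members. If at least 5 UMIs of Npy were asked of a member, the gap in share was 0.363 percentage points (exact permutation test, p = 0.393), and at 10 it was −0.137.

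**Figure D1:**
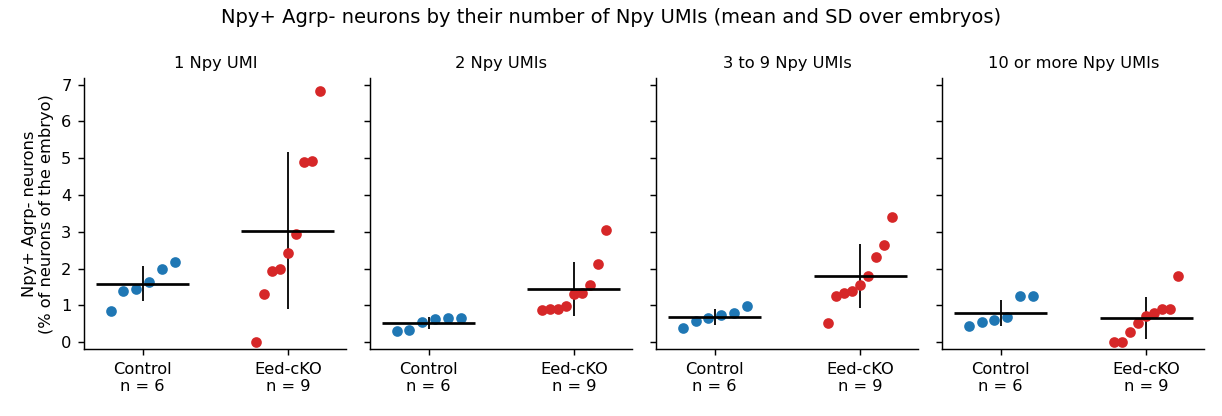
Share of neurons (percent, vertical axis) with no Agrp UMI and with 1, 2, 3 to 9, or 10 or more Npy UMIs, 1 point per embryo, with the mean and SD of each group. Control and Eed-cKO points are apart in the class with 2 UMIs (0.300 to 0.656% against 0.868 to 3.05%) and intermixed in the class with 10 or more.

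The number of Npy UMIs in a member is given as a description. Embryo means were 9.23 ± 4.60 UMIs (SD, n = 6) in Control embryos, from 4.36 through 8.20 to 17.8. They were 5.04 ± 3.49 (SD, n = 9) in Eed-cKO embryos, from 1.37 through 3.57 to 12.97. The ranges overlapped, and the means differed by −4.19 UMIs. A single cell weighed heavily in these means, since the top member held 12.7 to 36.4% of an embryo's member Npy UMIs in Control and 7.39 to 38.5% in Eed-cKO embryos, and with the median cell of each embryo in place of the mean the difference was 0.25 UMIs. Without Eed-cKO embryo 7, which held the member with the most Npy (180 UMIs), the difference was −5.18, and without the library of 1207 cells it was −6.93.

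The share of Npy neurons that the rule left out for Agrp is also given as a description. Of the neurons with Npy, 16.4 ± 6.82% (SD, n = 6) also held Agrp in Control embryos, from 6.90 through 16.6 to 25%. In Eed-cKO embryos it was 6.25 ± 6.19% (SD, n = 9), from 0 through 4.17 to 15.6%. The ranges overlapped, and the means differed by −10.1 percentage points. Without the library of 1207 cells, which belongs to the Control embryo with the most cells of both peptides, the difference was −5.97. The share with Agrp was higher among neurons with many Npy UMIs in both genotypes. It was 1.03% (1 of 97) and 1.68% (3 of 179) at 1 Npy UMI, and 45.5% (40 of 88, exact 95% interval 34.8 to 56.4%) and 31.6% (18 of 57, 19.9 to 45.2%) at 10 or more.

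**Figure D2:**
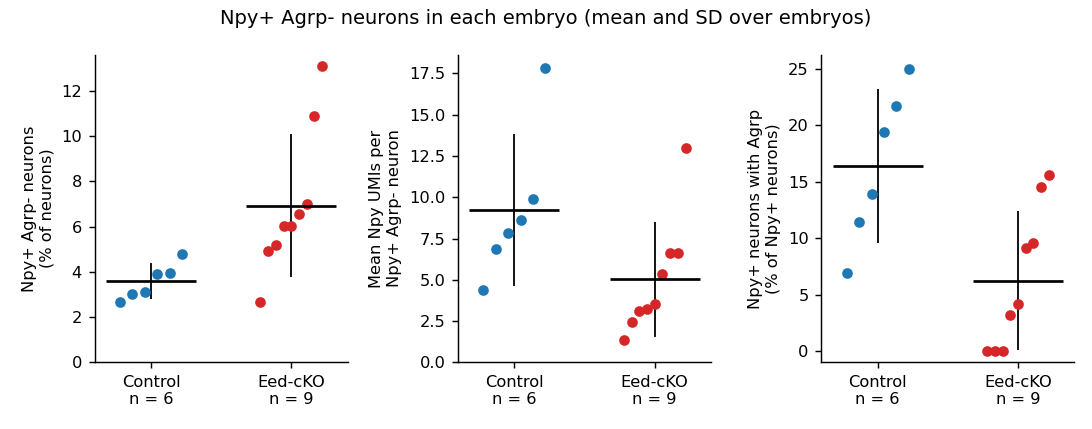
Share of neurons that are Npy+Agrp- (percent), mean Npy UMIs per such neuron, and share of Npy neurons that also held Agrp (percent), 1 point per embryo with the mean and SD of each group. The first share averaged 3.58% in Control and 6.93% in Eed-cKO embryos and the last 16.4% and 6.25%, and both pairs of ranges overlap.

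Npy transcripts also appeared outside neurons in Eed-cKO embryos. Among cells with fewer than 3 neuron genes, an Npy UMI was seen in 25 of 1288 (1.94%) in Control and 195 of 1711 (11.4%) in Eed-cKO embryos, with embryo means of 1.73 and 10.3% (exact permutation test, adjusted p = 0.0024). Cells with astrocyte genes gave 5 of 300 (1.67%) in Control and 144 of 548 (26.3%) in Eed-cKO embryos, with up to 44 UMIs in a cell. Those with oligodendrocyte precursor genes held it in 0 of 164 Control cells, which allows a share of up to 1.83%, and in 25.7% of Eed-cKO cells. These Eed-cKO shares lay above the 3.47% of vascular, fibroblast and microglial cells of the same embryos.

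Npy+Agrp- neurons with glial genes were seen mainly in Eed-cKO embryos, and this touches every gene result that compares the genotypes. 2 or more genes of an astrocyte, oligodendrocyte precursor, tanycyte or ependymal marker list occurred in 4 of 216 members in Control (1.85%) and 96 of 394 in Eed-cKO embryos (24.4%). Over embryos the share ran from 0 to 4.55% in Control and from 0 through 10.6 to 59.3% in Eed-cKO embryos (exact permutation test, p = 0.0232), with Eed-cKO embryos 4, 5 and 9 at 26.1, 43.9 and 59.3%. In the other neurons it was 2.36 and 4.55%. The Eed-cKO members with glial genes held a mean of 2.58 Npy UMIs against 5.64 in the rest, a median of 8413.5 UMIs in all against 6074, and the same median of 5 neuron genes, and 7.29% of them against 11.1% were among the highest doublet scores. Astrocyte genes (Aqp4, Gja1, Aldh1l1, Slc1a3, Agt) summed to 0 to 0.416 UMIs per 10000 in the members of Control embryos, 1 of the 5 genes being at 0, and to 0 to 8.11 in Eed-cKO embryos, with none at 0. Fibroblast genes (Col1a1, Col1a2, Dcn) reached 0.0494 in Control, with 2 of 3 at 0, and 3.91 in Eed-cKO embryos. Whether such cells are neurons was not tested, so counts of calls, and the calls that were lost, are also given below without the cells that held glial genes.

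Sst, which encodes somatostatin, was found in about the same share of Npy+Agrp- neurons in both genotypes. It was detected in 27.0 ± 9.11% of them in Control (SD, n = 6; 16, 24.2 and 40.7% as lowest, median and highest) and 25.9 ± 8.75% in Eed-cKO embryos (SD, n = 8; 17.02, 24.03 and 43.9%), and the ranges overlapped (exact permutation test, adjusted p = 0.819 over 4 shares). Without cells that held glial genes the shares were 26.9 and 26.8%. Eed-cKO embryo 2 was left out of these shares and of the fits below for its 4 members. Most members thus had no Sst UMI, and the cells are named here by their rule and not as somatostatin neurons. Among other neurons Sst was found in 6.90% in Control and 12.7% in Eed-cKO embryos (exact permutation test, adjusted p = 0.0183), and among neurons with both Npy and Agrp in 2.04% (Control) and 3.57% (Eed-cKO) of cells. Vascular, fibroblast and microglial cells held it in 0.368 and 2.17%. Within Control members Sst was detected in 24 of 48 cells with 10 or more Npy UMIs (50.0%) and 19 of 96 with 1 (19.8%). In Eed-cKO members it was 13 of 39 (33.3%) and 49 of 176 (27.8%).

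The fast transmitters of Npy+Agrp- neurons differed between the genotypes. Slc32a1 encodes the vesicular transporter of GABA and glycine and Slc17a6 the vesicular glutamate transporter VGLUT2. Slc32a1 without Slc17a6 was found in 34.3 ± 9.85% of Control members (SD, n = 6; 19.4, 35.7 and 47.2%) and 12.4 ± 5.02% of Eed-cKO members (SD, n = 8; 5.43, 12.6 and 21.1%), an overlap of 1 Control embryo with the highest Eed-cKO embryo (exact permutation test, adjusted p = 0.00266). Both transporters were found together in 7.97 ± 4.33% (3.23, 7.87 and 13.6%) and 24.9 ± 8.05% (11.3, 24.3 and 37.8%), again with overlapping ranges (adjusted p = 0.0040, same test). This difference was 12.5 points and no longer passed when at least 2 Npy UMIs were asked (adjusted p = 0.0979, same test), and with cells thinned to 2000 UMIs the shares were 0 and 5.25% (exact permutation p = 0.00466). Slc17a6 alone stood at 34.6 ± 13.7% and 41.7 ± 9.17% (adjusted p = 0.352, same test), and neither at 23.1 and 20.99%. Without cells that held glial genes the first share was 34.2 and 14.3% (exact permutation p = 0.0013) and the share with both 8.13 and 21.4% (p = 0.00566, same test).

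The other neurons showed the same differences. Slc32a1 alone stood at 23.4% in Control and 11.9% in Eed-cKO embryos and both transporters at 4.79 and 21.4% (exact permutation tests, adjusted p = 0.000833 for each). The excess of Npy+Agrp- neurons over other neurons of the same embryos in Slc32a1 alone was 10.9 percentage points in Control and 0.490 in Eed-cKO embryos, and this change in excess did not pass after adjustment (exact permutation p = 0.0373, adjusted p = 0.186). For both transporters the excess was 3.18 and 3.49 points (p = 0.901, same test). A change particular to Npy+Agrp- neurons was not shown for either share.

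**Figure D3:**
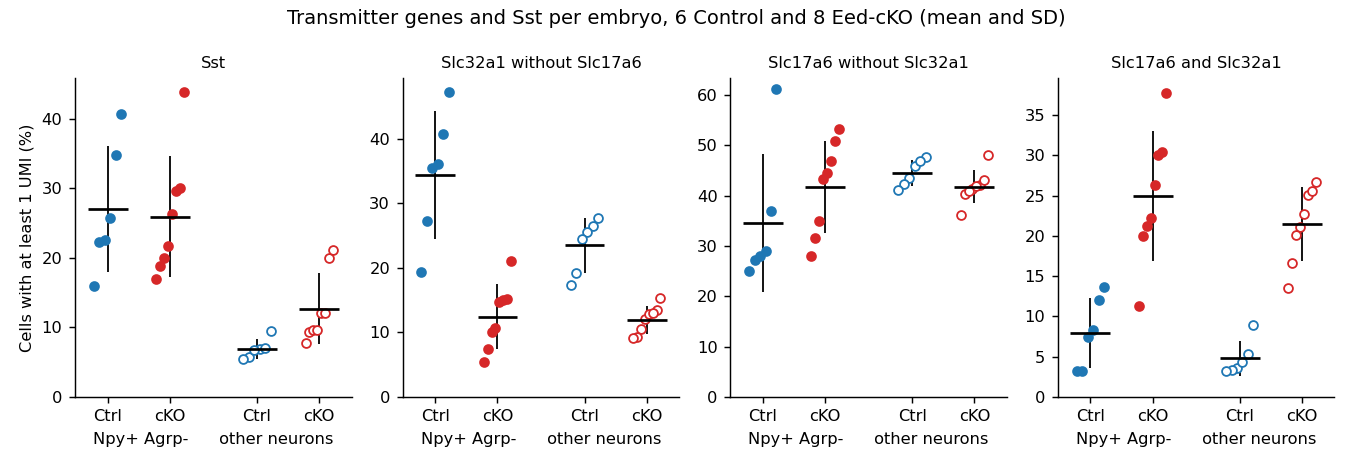
Share of cells (percent) with Sst, with Slc32a1 and no Slc17a6, with Slc17a6 and no Slc32a1, and with both, in Npy+Agrp- neurons and in other neurons, 1 point per embryo with the mean and SD. In Npy+Agrp- neurons Slc32a1 alone averages 34.3% in Control and 12.4% in Eed-cKO embryos, and both transporters 7.97% and 24.9%.

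Which genes set Npy+Agrp- neurons apart in Control embryos was asked by comparing their summed UMI counts with those of the other neurons of the same 6 embryos (edgeR quasi-likelihood test, embryo as a block, Benjamini-Hochberg adjustment over all genes at 0.05). In sums, more cells with a transcript and more transcript per cell cannot be told apart. 130 of 14512 genes (0.896%) passed, 51 higher and 79 lower in Npy+Agrp- neurons, 1086 had an unadjusted p under 0.05, and the median log2 difference over all genes was −0.07. 131 passed without the cells that held glial genes, 112 of them shared. With DESeq2-type scaling 55.2% of the calls were higher, against 39.2% with the scaling used here. Levels are CPM, scaled within each comparison. Folds given as at least, and bounds, set a gene with 0 UMIs at 3 UMIs. They cover counting error and not the spread between cells or embryos.

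Sst had the largest rise of the peptide genes called. It ran from 78.6 through 125 to 144 CPM in other neurons and from 275 through 1774 to 4506 in Npy+Agrp- neurons, with no overlap, and was higher in 6 of 6 embryos. The log2 fold change was 3.62 ± 0.12 (SE, adjusted p = 2.9e-95). That error is smaller than the spread of the embryos, whose own log2 differences ran from 1.12 to 5.84 (mean 3.43 ± 1.70 SD). An exact permutation test that flips the sign of each embryo gave p = 0.03125, the smallest that 6 pairs allow, and with a robust estimate of the spread the error was 0.75 and the call was lost (adjusted p = 0.266).

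Further genes rose in Npy+Agrp- neurons and held with the robust estimate and without any 1 embryo. Pnoc, the prepronociceptin gene, ran from 50.0 through 62.2 to 85.3 CPM in other neurons and from 78.3 through 143 to 285 in members, higher in 6 of 6 embryos (log2 1.302 ± 0.15, adjusted p = 6.0e-13). Calcr, the calcitonin receptor, ran from 37.6 through 51.7 to 63.3 CPM and from 58.7 through 95.4 to 201, also in 6 of 6 (log2 1.17 ± 0.17). The ranges of Pnoc and Calcr overlapped between the cell classes, though each embryo moved the same way. The transcription factor genes Pax6 (log2 1.91 ± 0.23), Onecut2 (0.85 ± 0.11) and Isl1 (1.02 ± 0.11) and Kcnmb2, a subunit of calcium-activated potassium channels (1.79 ± 0.26), were higher in 6, 6, 5 and 6 of 6 embryos.

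Gad2, Six3 and Foxb1 rose in Control members in the test but not in every form of it. Gad2, one of the genes for the GABA-synthesising enzyme, ran from 131 through 162.8 to 181 CPM in other neurons and from 65.9 through 322 to 394 in members, higher in 5 of 6 embryos (log2 0.79 ± 0.11, adjusted p = 5.7e-09). Six3, a forebrain transcription factor, was higher in 5 of 6 (1.01 ± 0.11), as was Foxb1, a mammillary factor (1.22 ± 0.13). All 3 lost their calls with the robust estimate (adjusted p = 0.628, 0.568 and 0.584). Slc32a1 had a log2 difference of 0.52 (adjusted p = 0.0219), which was lost without Control embryo 1, 3, 4 or 6. Slc17a6 (−0.33, adjusted p = 0.0727) and Gad1 (0.27, adjusted p = 0.228) did not pass. Of the 24 GABAergic lineage transcription factors tested 2 rose and 0 fell, with a median log2 difference of −0.26.

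Npy+Agrp- neurons lacked markers of several other hypothalamic populations. Hcrt, the orexin precursor of lateral hypothalamic neurons, had 942 UMIs in other neurons and 0 in members, at least 13.7-fold lower. Slc6a3, the dopamine transporter (−4.38 ± 0.92, 1 UMI in members), Aldh1a1, a retinaldehyde dehydrogenase of dopamine neurons (−5.94 ± 0.62, 1 UMI), and Tac2, which encodes neurokinin B (−3.36 ± 0.78, 2 UMIs), fell. So did Barhl1 and Fezf1, transcription factors of posterior and medial hypothalamic neurons (−2.38 ± 0.54 and −2.05 ± 0.34). Each of these 6 genes was lower in members in every embryo where it was seen and stayed called without any 1 embryo and with the robust estimate. Of 33 other neuropeptide genes 5 rose and 5 fell (median log2 −0.15, and −0.07 with genes at 0 set at their bound), of 24 glutamatergic transcription factors 2 rose and 4 fell (median −0.63), and of 14 fast transmitter and monoamine genes 2 rose and 2 fell (−0.38). Arcuate Agrp/Npy neuron genes gave 2 rises of 22 (0.06) and no fall.

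Of 3 NPY receptors tested against the other neurons 1 passed in Control embryos. Npy2r, a presynaptic NPY receptor, ran from 8.93 through 11.95 to 13.95 CPM in other neurons and from 5.07 through 28.4 to 52.2 in members (log2 1.35 ± 0.37, adjusted p = 0.0363), a call lost without Control embryo 1, 4, 5 or 6. Npy1r (0.24, adjusted p = 0.951) and Npy5r (−0.91) did not pass. Of 12 genes of peptide processing and dense-core vesicles only Scg2, a secretogranin, passed (−0.41, adjusted p = 0.0022), and not without Control embryo 2 (−0.26, adjusted p = 0.277) or with the robust estimate.

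The same comparison in Eed-cKO embryos gave 907 calls of 14654 genes (6.19%), 418 higher (2.85%) and 489 lower (3.34%), over 8 embryos, with 2519 at an unadjusted p under 0.05 and a median log2 difference of −0.05. Without the cells that held glial genes it gave 235, 195 of them shared. With DESeq2-type scaling 69.8% of the calls were higher, and with library size alone 64.5%, against 46.1% here. Sst ran from 161 through 252 to 293 CPM in other neurons and from 138 through 549 to 2522 in members, and was higher in 7 of 8 embryos (log2 1.59 ± 0.11, adjusted p = 1.5e-32). Its embryo differences averaged 1.40 ± 1.31 (SD), an exact sign-flip permutation test gave p = 0.0156, and the call was lost with the robust estimate (SE 0.46, adjusted p = 0.114).

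3 receptor genes were called in Eed-cKO members. Npy2r rose (log2 1.74 ± 0.40, adjusted p = 0.00081, higher in 6 of 8 embryos) and Npy1r, the postsynaptic Y1 receptor, fell (−1.89 ± 0.47, adjusted p = 0.0032, lower in 8 of 8). Calcr rose (0.79 ± 0.11, 8 of 8). Foxb1, a transcription factor of the mammillary region, also rose (0.59 ± 0.12, 6 of 8). The 4 calls held without any 1 embryo, with the robust estimate and without the cells that held glial genes.

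The Dlx genes, which direct forebrain GABAergic development, were lower in Eed-cKO Npy+Agrp- neurons than in their neighbours. Dlx1 ran from 85.8 through 92.4 to 136 CPM in other neurons and from 16.3 through 53.6 to 79.4 in members, with no overlap (log2 −0.84 ± 0.14, adjusted p = 4.4e-07). Dlx2 (−0.93 ± 0.19) and Dlx5 (−1.28 ± 0.27) fell as well, in 7 and 8 of 8 embryos. Satb1, a chromatin organiser of interneurons, fell by 0.97 ± 0.14 on the log2 scale, in 8 of 8. These 4 calls also held under the same alternatives. In all 7 of 24 GABAergic lineage factors fell and none rose (median log2 −0.22), and 9 of 24 glutamatergic factors fell and 1 rose (−0.53). Gad1 (−0.35) and Gad2 (−0.43) fell, but neither was called without Eed-cKO embryo 5 (adjusted p = 0.0553 and 0.102) or without the cells that held glial genes, and Slc17a6 and Slc32a1 did not pass (−0.17 and −0.05, adjusted p = 0.239 and 0.902).

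Some peptide genes were lower or absent in Eed-cKO Npy+Agrp- neurons, while others were higher. Pmch, the precursor of melanin-concentrating hormone, had 486 UMIs in other neurons and 0 in members, at least 18.48-fold lower. Tac2 and Kiss1, which encode neurokinin B and kisspeptin, fell (−3.04 ± 0.58 and −2.61 ± 0.52). The list of other neuropeptides gave 4 rises, Sst among them, and 4 falls of 33 (median 0.16). Of 32 Hox genes tested 3 fell (Hoxc8, Hoxc10 and Hoxc13) and none rose (median −0.36), and without the cells that held glial genes 0 of 31 were called.

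Immediate early genes, which respond to cell activity, and astrocyte genes were higher in Eed-cKO members along with the glial genes described above. 5 of 12 immediate early genes rose (median 0.46), Fos by 0.60 ± 0.08, and without the cells that held glial genes 0 of 12 did. The 10 largest rises outside the lists, Slc4a4 and Aqp4 among them (3.02 for each), were of genes known from astrocytes for the most part, and none was called without those cells, where 5 of the 10 had too few UMIs to be tested. All 4 astrocyte markers tested (median 2.79) and 3 of 3 fibroblast markers rose.

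Between the genotypes, 60 genes were called in both co-expression fits, 46.2% of the Control calls and 6.62% of the Eed-cKO calls. Of these, 13 were higher in members in both, 32 lower in both, and 15 had opposite signs.

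The summed counts of Npy+Agrp- neurons were also compared with those of the neurons that held both Npy and Agrp. In 7 embryos with at least 5 cells of each kind (Control 1, 3, 4 and 5 and Eed-cKO 1, 6 and 9), 602 of 10486 genes (5.74%) passed, 505 higher and 97 lower, with 1761 at an unadjusted p under 0.05 and a median log2 difference over all genes of 0.24. 452 passed without the cells that held glial genes, 395 of them shared. With DESeq2-type scaling the median was 0.10 and 72.2% of calls were higher, and with library size alone 0.03 and 65.3%, against 83.9% here.

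Sst was close to absent from cells with both peptides. It was listed at 0 to 52.9 CPM in cells with both peptides, with a median of 0 and 3 UMIs in all, and at 156 through 543 to 2625 CPM in Npy+Agrp- neurons (1826 UMIs). It was higher in 7 of 7 embryos (log2 6.93 ± 0.40, adjusted p = 1.2e-64, and 1.5e-66 with the robust estimate). Slc17a6 ran from 0 through 41.5 to 297 CPM in cells with Agrp and from 188 through 320 to 558 in cells without it (1.83 ± 0.27, adjusted p = 3.0e-09, higher in 6 of 7). Slc32a1 (0.39, adjusted p = 0.535) and Gad1 (−0.05, adjusted p = 0.945) did not pass. Peptide genes Tac1 (2.22 ± 0.49), Cck (1.86 ± 0.35) and Pnoc (1.69 ± 0.37) rose among the 7 of 21 neuropeptide genes called, and none fell (median 1.53).

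Transcription factors of GABAergic and glutamatergic lineages and arcuate genes differed as follows. 10 of 18 GABAergic lineage factors rose and 1 fell (median 2.91, and 1.93 with genes at 0 set at their bound), with Meis2 (3.42 ± 0.49) and Dlx1 (3.399 ± 0.52) higher in 7 of 7 embryos. 4 of the 18 had no UMI with Agrp, 3 of them called, and entered the test only through the members, so the count is a description. Pax6 and Lhx6, the latter a factor of Sst interneurons, had no UMI with Agrp and were at least 9.65 and 5.69-fold higher. 6 of 17 glutamatergic factors rose and none fell (median 2.37, and 1.38 with bounds), with Onecut2 (3.44 ± 0.35) and Foxb1 (3.04 ± 0.44) also higher in 7 of 7. Of 12 arcuate Agrp/Npy genes tested 6 fell and 1 rose (median −1.43).

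The largest falls outside the lists included Ghr, Cited1, Arhgap6 and Pcdh20. Cited1, a transcriptional coactivator, ran from 1279 through 2626 to 3421 CPM with Agrp and from 48.8 through 214 to 455 without (log2 −3.57 ± 0.16, adjusted p = 3.2e-100). Arhgap6 and Pcdh20, the latter a protocadherin, fell by 3.13 ± 0.53 and 2.97 ± 0.47 on the log2 scale. Ghr, the growth hormone receptor (−3.78 ± 0.37), Calcr (−2.41 ± 0.19), Dlk1, a Notch ligand homologue (−2.41 ± 0.17), and Foxo1, a target of insulin signalling (−2.92 ± 0.48), were lower in 7 of 7 embryos. Tbx3 (−2.23 ± 0.35), Asb4 (−1.72 ± 0.19) and Six6 (−1.70 ± 0.38), genes of the arcuate lineage, fell too. Npy2r ran from 56.8 through 114 to 299 CPM with Agrp and from 0 through 31.4 to 57.5 without, meeting only at the edge (−2.29 ± 0.38, adjusted p = 2.1e-07). In the processing list Scg2 (−1.47 ± 0.16) and Pcsk1n, the proSAAS precursor (−0.66 ± 0.14), fell and Cpe rose (0.50). Except for Cpe, the genes named in this comparison with an error stayed called without any 1 embryo and with the robust estimate.

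Eed-cKO and Control embryos were then compared within Npy+Agrp- neurons. Member sums held 150000 to 384713 UMIs in Control and 108251 to 809367 in Eed-cKO embryos. 457 of 12070 genes (3.79%) passed, 327 higher (2.71%) and 130 lower (1.08%) in Eed-cKO, with 1914 at an unadjusted p under 0.05 and a median log2 difference of 0.03. Without the cells that held glial genes 80 passed, 76 of them shared, and without the library of 1207 cells 912. Levels did not overlap, with Eed-cKO embryos above, in 1.03% of genes and below in 0.323%.

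Hox genes, which pattern the hindbrain and spinal cord, appeared in Npy+Agrp- neurons of Eed-cKO embryos. 15 of the 20 tested rose, and all 20 had 0 UMIs in Control members. A gene at 0 in Control enters the test only through its Eed-cKO counts, so the count is a description. Folds were at least 2.49 to 24.6, and the median log2 difference was 5.14, or 2.74 with every gene at its bound. Hoxc10 ran from 39.3 through 53.6 to 95.6 CPM in the 8 Eed-cKO embryos and was at least 24.6-fold higher, Hoxc13 at least 18.3-fold and Hoxb13 at least 17.3-fold. Without the cells that held glial genes 11 of 15 rose.

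Other transcription factors of posterior or non-neural tissues were called higher as well, 6 of 12 tested (median 3.64, and 2.58 with bounds). 6 of the 12 had 0 UMIs in Control members, so this count too is a description, and without the cells that held glial genes 3 of 10 were called (Tfap2b, Tal1 and Vax2). Tfap2b, an AP-2 factor, had no UMI in Control members and ran from 15.03 through 72.8 to 122 CPM in Eed-cKO embryos, at least 36.4-fold higher. Vax2 and En1, a ventral eye and a midbrain factor, were at least 15.9 and 6.31-fold higher, En1 not being called without the cells that held glial genes (adjusted p = 0.0816). Tal1, a blood and midbrain factor with 10 UMIs in Control members, rose by a log2 fold change of 3.44 ± 0.43 (adjusted p = 1.3e-06), with all Eed-cKO embryos above all Control embryos (38.7 to 107 against 0 to 29.9 CPM). Of the cyclin-dependent kinase inhibitors 2 of 7 rose, Cdkn2b (4.25 ± 0.75, 1 and 55 UMIs) and Cdkn2a (0 and 24 UMIs, at least 3.99-fold). Cdkn2b was also called without the cells that held glial genes, where Cdkn2a had too few UMIs to be tested.

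Genes of the GABAergic forebrain fell in the same cells. Gad2 ran from 67.2 through 329 to 398 CPM in Control and from 72.9 through 103 to 200 in Eed-cKO embryos, an overlap at the lowest Control embryo (log2 −1.29 ± 0.24, adjusted p = 0.00082, and 0.0494 with the robust estimate). Nr2f2, which encodes COUP-TFII, ran from 207 through 350 to 632 CPM and from 156 through 192 to 204, with no overlap (−1.02 ± 0.19, adjusted p = 0.00050). Dlx1 (−1.39 ± 0.26) and Six3 (−1.39 ± 0.26) fell too, Six3 losing its call with the robust estimate (adjusted p = 0.060). In all 4 of 21 GABAergic factors fell and none rose, with a median of −0.15, and without the cells that held glial genes 5 of 20 fell. None of 21 glutamatergic factors was called (0.11). Gad2 was the single call among 10 transmitter genes (median −0.46), with Slc32a1 at −0.49 (adjusted p = 0.190), Gad1 at −0.42 (0.253) and Slc17a6 at 0.18 (0.718).

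Sst itself did not pass in this comparison. It ran from 278 through 1808 to 4561 CPM in Control and from 143 through 557 to 2595 in Eed-cKO members (log2 −1.18 ± 0.40, adjusted p = 0.0967), the ranges overlapping widely, and an exact permutation test on log2 CPM gave p = 0.165. Without the library of 1207 cells the value was −1.55 (adjusted p = 0.0099). Among 23 other neuropeptides Pomc, the melanocortin precursor, rose from 9 to 246 UMIs (3.51 ± 0.76, adjusted p = 0.0040), a call lost with the robust estimate (adjusted p = 0.14). Pmch (118 UMIs in 2 Control embryos and 0 in Eed-cKO) and Oxt, the oxytocin gene (−4.24), were called lower, and both calls were lost with the robust estimate (adjusted p = 0.336 and 0.205). Pmch had too few UMIs to be tested without the library of 1207 cells, and Oxt stood at 3.10 without Control embryo 6. Kcnmb2 fell by 2.58 ± 0.41 on the log2 scale (adjusted p = 7.4e-05), from 70.3 to 10.8 CPM at the median.

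Immediate early genes were higher in Eed-cKO members, 8 of 12 (median 1.87). Fos ran from 34.9 through 99.9 to 254 CPM in Control and from 409 through 522 to 804 in Eed-cKO embryos, with no overlap (log2 2.10 ± 0.24, adjusted p = 3.2e-07). Fosb (3.62 ± 0.37) and Npas4 (2.05 ± 0.36) rose beside it. These 3 were also called without the cells that held glial genes (Fos 1.22, Fosb 3.17), while Egr1 (2.04 ± 0.34) and Ier2 (2.94 ± 0.45) were not. A higher Fos level was not confined to members. In the other neurons it ran from 129 to 247 CPM in Control and from 256 to 459 in Eed-cKO embryos, also with no overlap.

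Genes of glia and connective tissue rose with the share of members that held them. 4 of 4 astrocyte markers (median 4.20), 3 of 4 oligodendrocyte precursor, 2 of 3 tanycyte, 2 of 2 pericyte and 3 of 3 fibroblast markers (6.29, and 4.82 with bounds) rose, with 1 of 3 olfactory ensheathing and 1 of 2 pituitary markers. Of those tested, 1 oligodendrocyte precursor, 1 tanycyte, 1 pericyte, 2 fibroblast and 2 pituitary markers had 0 UMIs in Control members. They entered the test only through their Eed-cKO counts, so the counts of these 5 lists are a description. 2 of 3 fibroblast markers and no other marker were called without the cells that held glial genes. No ependymal, cycling or endothelial marker (0 of 3 each) and 0 of 1 microglial marker passed. Slc1a3, the glial glutamate transporter GLAST, summed to 7 UMIs over the Control and 914 over the Eed-cKO members (5.96 ± 0.46) and was not called without the cells that held glial genes (adjusted p = 0.0814). Lamp5, a membrane protein of cortical interneurons, and Twist1, a mesenchymal factor, had no UMI in Control and were at least 25.4 and 12.3-fold higher.

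No gene of NPY signalling, peptide processing or PRC2 passed between the genotypes with all libraries. None of 2 NPY receptors was called (Npy2r −1.03, adjusted p = 0.275; Npy1r −2.26, adjusted p = 0.106, and −2.43 with adjusted p = 0.0273 without the library of 1207 cells), nor any of 12 processing genes (median log2 0.02) or 10 PRC2 subunits (−0.13). Arcuate Agrp/Npy genes gave 2 rises and 1 fall of 18 (0.14). Isl1 fell (−0.97 ± 0.22, adjusted p = 0.0064) and Dlk1 rose (0.96 ± 0.23, adjusted p = 0.013), and both lost their calls with the robust estimate (adjusted p = 0.0547 and 0.13). Without the cells that held glial genes Isl1 was not called (adjusted p = 0.0559), and Dlk1, Tbx3 and Calcr rose among 13 genes. Tbx3 rose (1.37 ± 0.37), but not without Control embryo 1 or 6 or Eed-cKO embryo 1 or 5.

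**Figure D4:**
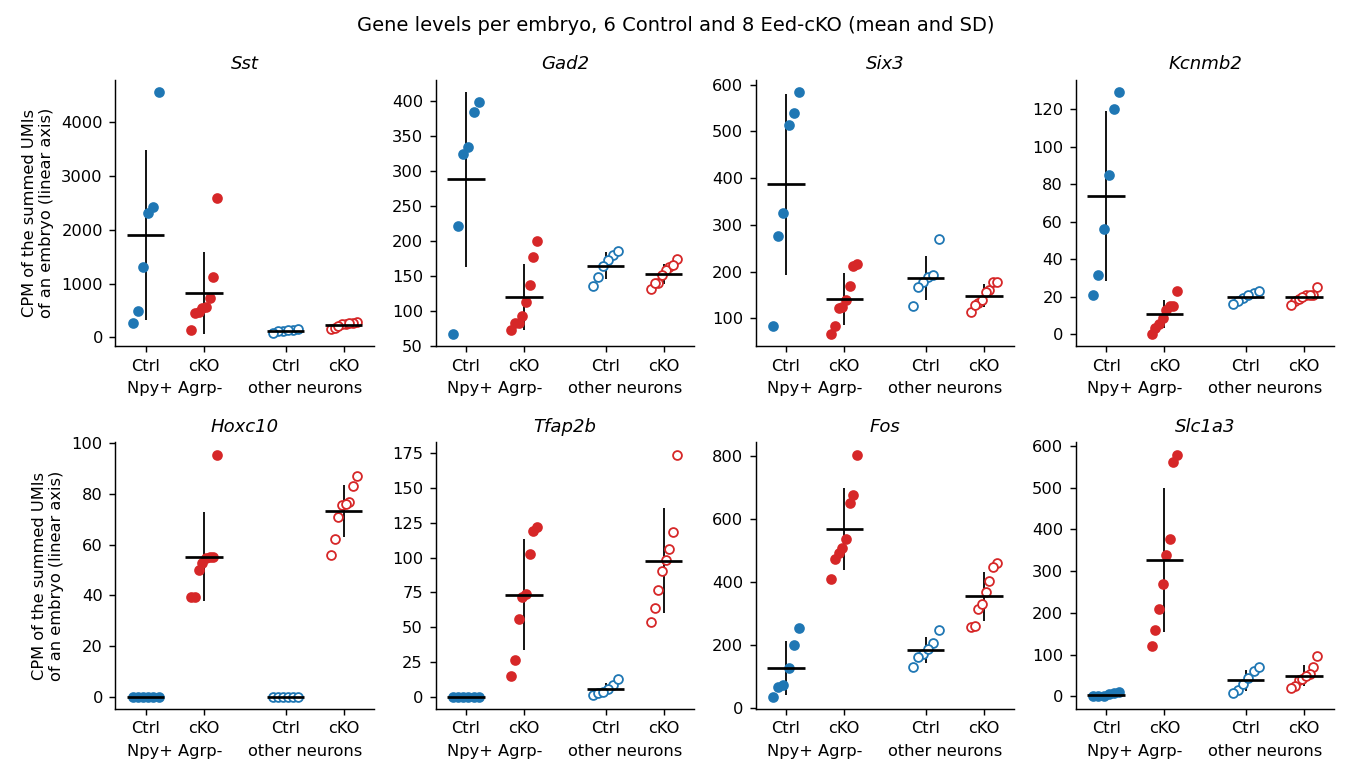
Levels (CPM) of Sst, Gad2, Six3, Kcnmb2, Hoxc10, Tfap2b, Fos and Slc1a3 in the summed Npy+Agrp- neurons (filled points) and other neurons (open points) of each embryo, Control beside Eed-cKO, with the mean and SD on linear axes. In Npy+Agrp- neurons, Hoxc10 and Tfap2b are at 0 in all 6 Control embryos, Fos does not overlap (34.9 to 254 against 409 to 804 CPM), and Sst, Gad2, Six3 and Kcnmb2 overlap.

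Whether the genotype difference in Npy+Agrp- neurons was unlike that in the other neurons was tested with an interaction term. 151 of 15546 genes (0.971%) passed, 117 with a higher and 34 with a lower genotype difference in Npy+Agrp- neurons, with 1410 at an unadjusted p under 0.05. Without the cells that held glial genes 18 passed, 11 of them shared. None of the 32 Hox genes passed (median log2 −0.33), nor any PRC2 subunit or NPY receptor.

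Pnoc, Kcnmb2 and Sox4 had negative interactions, a genotype difference lower in Npy+Agrp- neurons than in other neurons. For Pnoc the members were not called different between the genotypes. Pnoc stood at 144 and 125 CPM in Control and Eed-cKO members at the median, and at 64.2 and 114 in other neurons (log2 −1.06 ± 0.19, adjusted p = 9.4e-05). Kcnmb2 stood at 69.0 and 10.6 CPM in members and 19.96 and 20.2 in other neurons (−2.65 ± 0.39, adjusted p = 2.8e-07). Sox4, a factor of immature neurons, had an interaction of −0.71 ± 0.13. These calls held without any 1 embryo, without the cells that held glial genes and with the robust estimate.

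For Sst the gap in level between members and other neurons was smaller on average in Eed-cKO embryos, but not every test called this. Other neurons ran from 81.8 through 129 to 150 CPM in Control and from 159 through 250 to 290 in Eed-cKO embryos, with no overlap and the opposite direction to the members. The interaction was −2.02 ± 0.27 (adjusted p = 1.5e-08), and an exact permutation test of the embryos' own log2 differences, 3.38 in Control and 1.39 in Eed-cKO on average, gave p = 0.033. With the robust estimate it was not called (SE 0.79, adjusted p = 0.431). In the share of cells with Sst, the excess of members over other neurons was 20.1 percentage points in Control and 13.2 in Eed-cKO embryos. That difference did not pass (exact permutation p = 0.0932, adjusted p = 0.233). Gad2 (−1.17 ± 0.18), Isl1 (−1.17 ± 0.18) and Six3 (−1.08 ± 0.17) also had negative interactions, held without any 1 embryo and without the cells that held glial genes, and lost their calls with the robust estimate (adjusted p = 0.0672, 0.252 and 0.28). Glial genes such as Slc1a3 (5.76 ± 0.40) and Fabp7 (4.99 ± 0.27) and the immediate early genes Fos (1.10 ± 0.17) and Fosb (2.05 ± 0.36) had positive interactions, and none of these 4 was called without the cells that held glial genes.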

How the data were processed

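Hypothalami of E18.5 embryos (6 Control, 9 Eed-cKO) were profiled by droplet single-cell RNA-seq with 3′ tags. The UMI counts per gene and cell were deposited by the authors as 1 table of 14121 cells and 16510 genes. According to the submitters' processing notes, reads were handled with STAR 2.5.2b and SAMtools 1.3 on mm10. The study's methods name a vendor application and the removal of cells with few UMIs or genes, and the lowest cell here held 601 UMIs and 318 genes. Samples were grouped by the genotype in the labels.

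From these counts, Npy+Agrp- neurons were selected by the rule given above and UMIs were summed per embryo and class. The members and gene lists were chosen with earlier results of these data known. Embryo values were compared with two-sided exact permutation tests. The quasi-likelihood test of edgeR 4.0.16 (R 4.3.3, TMM scaling, Benjamini-Hochberg over all genes) was applied to the sums, leaving out genes with under 15 UMIs in all or at most 1 in every sum, and leaving out Npy, Agrp and the 6 neuron genes. Embryos with under 10 members were left out of the fits. 12 gene lists and 11 marker lists (238 genes, 220 in the table) were described by counts of calls, and the genes of them that are missing were not analysed here. Genes were named by a rule: from each list up to 6 called genes a direction, outside the lists the 10 largest rises and falls with at least 30 UMIs, and always Sst, the transmitter genes, Eed and the NPY receptor and processing genes.

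The test was tried on simulated counts that had the same spread for every gene and no differences between embryos. Of 2-fold changes it found 20% in the interaction fit and 46 to 67% in the other fits. Of 4-fold changes it found 67% and 84 to 100%. Such counts cannot show how the test treats genes that vary more than others. In the fit, genes whose embryos vary more than those of other genes have errors that are too small, so a fit with a robust estimate of the spread, chosen after seeing the data, is given beside the results.

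Alternatives were DESeq2 1.42.0, limma 3.58.1 with TREAT, other scaling and filters, cells thinned to 2000 UMIs (1315 Control and 1135 Eed-cKO cells were shallower and left out, which kept 130 and 190 members), leaving out each embryo, and removal of the 6% of cells per library with the highest Scrublet doublet score (scanpy 1.11.5). 64 members (10.5%) were among these and stayed in the main results. The fits without the library of 1207 cells (the one with the most cells), without cells that held 2 or more glial genes, with at least 5 or 10 Npy UMIs and with medians were also chosen after seeing the data. Python 3.11.15 with numpy 2.4.6, scipy 1.17.1, pandas 2.3.3 and matplotlib 3.10.9 was used. No genome sequence beyond the RefSeq promoter windows was used. Some genes that the rule names are not reported here.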

Additional observations from a re-analysis of the deposited data

Results flagged for a closer look

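3 of 26 groups of embryo values that were examined had 1 embryo far from the others, a gap that chance gives in about 1 of 20 groups. Control embryo 2 had 61.3% of Npy+Agrp- neurons with Slc17a6 and no Slc32a1, where the next embryo had 37.0%. Eed-cKO embryo 7 had 12.97 Npy UMIs per member, the next 6.64, and also the highest Sst level in members, 2595 CPM against 1122 in the next.

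The genotype difference in Npy+Agrp- neurons differed from that in other neurons, by a test of the interaction, for 151 genes. Among them were Sst (log2 −2.02), Gad2 (−1.17), Isl1 (−1.17) and Six3 (−1.08), whose calls were lost with a robust estimate of the spread. Slc1a3 (5.76), Fabp7 (4.99) and Apoe (4.78), glial genes of which Apoe was picked after its value was seen, had a larger difference in Npy+Agrp- neurons than in the other neurons.

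Outside the neurons, 11.4% of Eed-cKO cells with fewer than 3 neuron genes held an Npy UMI, against 1.94% of Control cells.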

How the results depend on the processing

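The higher share of Npy+Agrp- neurons in Eed-cKO embryos was 2.71 percentage points in male embryos alone (exact permutation p = 0.2, 4 against 4), 0.363 when at least 5 Npy UMIs were asked, −0.137 at 10, and 1.97 without cells that held glial genes, and it ran from 2.58 to 3.88 when any 1 embryo was left out. The difference in Npy UMIs per member was −4.97 with libraries as samples, −6.93 without the library of 1207 cells, and 0.25 with medians, and −5.18 to −2.47 when 1 embryo was left out. The difference in the share of Npy neurons with Agrp was −5.97 without that library (leave-one-out −12.0 to −8.41). The difference in the share with both transporters was 12.5 and did not pass when at least 2 Npy UMIs were asked (15.1 to 18.9). Those for Slc32a1 alone, Slc17a6 alone and Sst ran from −24.9 to −19.4, from 5.15 to 12.4 and from −3.67 to 1.64. The difference for Sst turned to 0.465 without Control embryo 5, 1.64 without Control embryo 6 and 0.175 without Eed-cKO embryo 6, and Slc17a6 alone passed without Control embryo 2.

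DESeq2 called 33, 499 and 239 genes in the Control, Eed-cKO and Agrp comparisons, and thinned cells gave 44 and 127 in the first and second. Against cells with Agrp, 302 genes were called with at least 2 Npy UMIs and 279 without the highest doublet scores. Between the genotypes limma with TREAT called 267, at least 2 Npy UMIs gave 282, the fit without the library of 1207 cells gave 912, and that without cells with glial genes 80. The last setting gave 235 in the Eed-cKO comparison and 18 for the interaction. Leaving out 1 embryo gave 107 to 132 calls in Control, 596 to 869 in Eed-cKO (596 without Eed-cKO embryo 5), 426 to 621 against Agrp cells, 304 (without Control embryo 1) to 843 (without Control embryo 5) between the genotypes and 98 (without Control embryo 4) to 195 for the interaction. The robust estimate of the spread called 109, 932, 605, 464 and 162 genes, of which 105, 896, 596, 406 and 136 were shared.

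Single genes that were called in the main fit or in the alternative turned in sign as follows, and the causes were not tested. Turns in sign of genes called in neither are not listed. In Control, Slc2a1 stood at −0.025 with DESeq2, −0.12 with at least 2 Npy UMIs, −0.17 without the library of 1207 cells and −0.073 to 1.56 when 1 embryo was left out (lowest without Control embryo 5), and Cartpt at −0.23 with thinned cells. In Eed-cKO, Tshb stood at 1.83 with DESeq2, Ghrh at −2.06 with at least 2 Npy UMIs and Ttr at −2.71 to 0.060 when 1 embryo was left out (highest without Eed-cKO embryo 8). Fos, Egr1 and Fosb stood at −0.11, −0.31 and −0.28 with thinned cells. Without cells that held glial genes Fos, Egr1, Nr4a1, Ccdc3 and Aldh1l1 stood at −0.22, −0.088, −0.0038, −0.19 and −3.43. Against Agrp cells, Pmch, Cd93 and Slc38a5 stood at −1.67, −0.93 and −1.24 with DESeq2. Oxt between the genotypes ran from −5.56 to 3.10 when 1 embryo was left out (highest without Control embryo 6). In the interaction, Gata3 stood at 0.28 without the highest doublet scores and Aplnr at 1.498 without the library of 1207 cells and from −8.26 to 1.61 when 1 embryo was left out (highest without Control embryo 5). Of the other values for single genes, 2922 kept their side of the threshold and 281 lost their call when 1 embryo was left out. Under the other alternatives 2749 and 476 did so. Values that turned in sign without a call in either fit are counted among those that kept their side. No paired analysis was possible because, between the genotypes, replicate numbers only name embryos and no animal gave both. The comparisons of cell classes had the embryo as a block. Depth limits what can be said of genes with few UMIs in member sums.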
